A study of Canis lupus familiaris with 7 samples.

Results

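The symbols of 9 megakaryocyte and platelet genes (*TUBB1*, *PF4*, *PPBP*, *GP9*, *GP1BA*, *GP6*, *NFE2*, *TREML1* and *F13A1*) were looked up in the gene column of the expression table, and 7 of the 9 were found among its 24580 genes. *PF4* and *GP1BA* were not analysed here. Megakaryocytes are the large polyploid cells of the bone marrow that shed platelets into the blood. They build the platelet's surface receptors, granules and microtubule ring in advance and package them into long extensions from which platelets bud. Surface receptors (*GP9*, *GP6*, *TREML1*), granule and cytoplasmic proteins for release (*PPBP*, *F13A1*), a tubulin of the microtubule ring (*TUBB1*) and a transcription factor of late maturation (*NFE2*) are each represented by the genes found. The RNA came from whole pieces of dog bone: 3 samples of osteosarcoma (OSA) tumor (T1, T3 and T10) and 4 of adjacent bone that looked grossly non-malignant (N1, N3, N8 and N9), all removed at amputation or after euthanasia. No treatment, age, sex or breed is given for a sample, and the non-tumor tissue is described as matched, without a statement of which samples share a dog.

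Values are in FPKM, fragments per length of transcript and per sequenced fragment, so that levels of different genes can be set side by side. The number of reads per gene is unknown. From the steps between the lowest values, the fragments behind a given FPKM ranged from 0.543 (N8) to 1.44 (T10) times those in N1. A value of exactly 0 is given here as listed at 0, because for 66 genes 1 sample was at 0 while another reached at least 500 FPKM. The labelled tissue was not uniform. The osteoblast genes *BGLAP* and *IBSP*, which encode bone matrix proteins, were at 7.91 and 3.35 FPKM in N8 against 167 and 488 FPKM in N1, and the muscle actin gene *ACTA1* was at 13913 FPKM in N8 and 11146 in N9 against 20.0 in N1. The summed FPKM of 9 osteoblast genes, of which 0 passed the test between the groups, was 7440 in N1, between 162 and 1722 in the other non-tumor samples and between 1929 and 12731 in tumor, so that N1 was the one non-tumor sample inside the tumor range. In such bulk tissue, fewer megakaryocytes or platelets and less RNA per cell cannot be told apart.

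Whether megakaryocyte and platelet genes differ between OSA tumor and non-tumor bone was asked first. By limma on log2(FPKM + 1), 0 of the 7 genes passed the threshold (a change of at least 2-fold, unadjusted p under 0.05), which 6.86% of the 13507 genes tested passed (3.58% in the direction lower in tumor). An unadjusted p under 0.05 was likewise reached by 0 of them, and over all genes tested an adjusted p under 0.05 was reached by 0. The log2 fold change was negative for 6 of the 7 genes, from -2.37 (*NFE2*) to -0.63 (*TUBB1*), and 0.16 for *F13A1*. Their median was -1.08, against -0.02 over all genes tested; on a log2(FPKM + 0.01) scale it was -2.59. *GP9*, *GP6* and *TREML1* reached the mean of 1 FPKM needed for testing only through the non-tumor samples N3 and N8. Those samples also held 91.1% of the summed FPKM of *NFE2*, so nothing is read from this median. Tumor and non-tumor values overlapped in all 7 genes, while 5.85% of all genes tested had groups that did not overlap. *NFE2*, *GP9* and *TREML1* passed the threshold without N1 (log2 fold changes of -2.90, -2.82 and -2.64) and without N9 (-3.05, -2.89 and -2.47), where 14.9% and 5.18% of all genes tested passed. N3 and N8 weigh more in the non-tumor mean of those fits, so nothing is read from these calls either. *PPBP* changed sign without T1 (0.50). The spread within the non-tumor group was the larger one for most of these genes: the SD of log2(FPKM + 1) was 2.64 there for *GP9* and 0.22 in tumor.

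**Figure D1:**
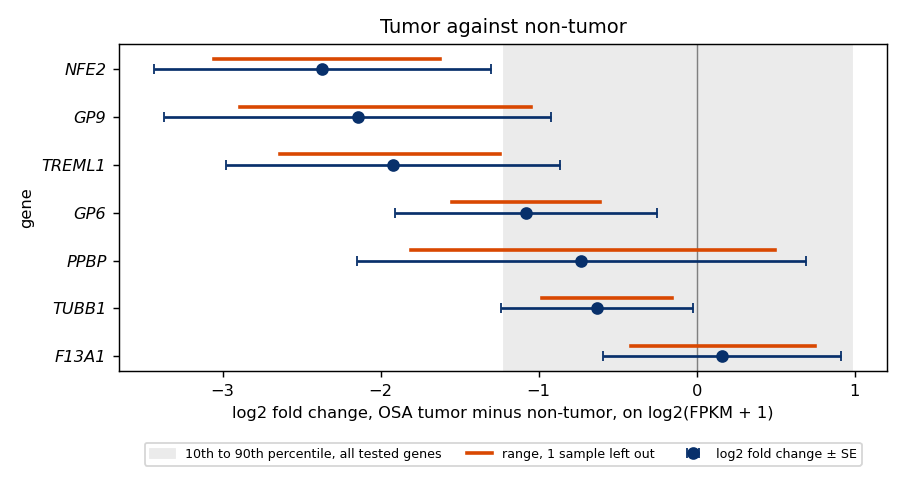
Log2 fold change of each gene between 3 OSA tumor and 4 non-tumor samples (x axis, tumor minus non-tumor on log2(FPKM + 1)); blue points with bars are limma estimates ± SE, orange lines the range when each sample is left out in turn, and the grey band the 10th to 90th percentile of all tested genes (-1.22 to 0.98). *NFE2*, *GP9* and *TREML1* lie left of the band with the SE bar of *GP9* and of *TREML1* reaching into it, and the line of *PPBP* and that of *F13A1* cross 0.

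*GP9* (ENSCAFG00000004342, CanFam3.1 chromosome 20 from 3027866 to 3028426) encodes glycoprotein IX, a chain of the receptor by which platelets hold on to von Willebrand factor. It was at 56.8 FPKM in N8 and 10.8 in N3, but at 0.450 in N1 and 0.255 in N9, and the tumor samples were at 0.483 FPKM (T1), 0.442 (T10) and 0.126 (T3). N3 and N8 alone were high, and N1 and N9 were inside the tumor range. The means were 17.1 ± 27.0 FPKM (SD, n = 4) in non-tumor and 0.350 ± 0.195 FPKM (SD, n = 3) in tumor samples. The log2 fold change was -2.15 (SE 1.22, adjusted p = 0.702 by limma), and the two-sided exact permutation test over 35 assignments gave p = 0.286, where the smallest p it can give is 0.0571. Relative to T3, which had the fewest by this estimate, N9 had an estimated 1.07 times as many fragments of *GP9* (FPKM times the fragments behind each FPKM), N1 2.90, T1 2.91 and T10 4.09 times, against 92.3 times in N3 and 199 times in N8. Differences among those 5 samples were not tested.

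*GP6* (ENSCAFG00000031157, chromosome 1 from 102586238 to 102637360) encodes glycoprotein VI, the collagen receptor of platelets. Its level was 6.16 FPKM in N8, 5.28 in N3, 1.12 in T10, 0.179 in N9 and 0.0235 in N1, and it was listed at 0 in T1 and T3. N3 and N8 were again the highest, with T10 next. It was the lowest of the 7 genes, at a mean of 1.82 FPKM over all samples, and its mean reached the filter of 1 FPKM only through N3 and N8. The log2 fold change was -1.08 (SE 0.83, adjusted p = 0.762 by limma; exact permutation p = 0.286). Its interval covers a further listed gene without a symbol, which was at 0 in all 7 samples.

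*TREML1* (ENSCAFG00000001584, chromosome 12 from 9914891 to 9920655) encodes a receptor that platelets store in their granules and bring to the surface when activated. Non-tumor values were 28.4 FPKM in N8 and 23.3 in N3, then 1.34 in N9 and 0.639 in N1. Tumor values were 1.75 FPKM (T10), 0.909 (T1) and 0.322 (T3). The split was the same as in *GP9*, with N1 and N9 inside the tumor range. The log2 fold change was -1.92 (SE 1.05, adjusted p = 0.697 by limma; exact permutation p = 0.286).

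**Figure D2:**
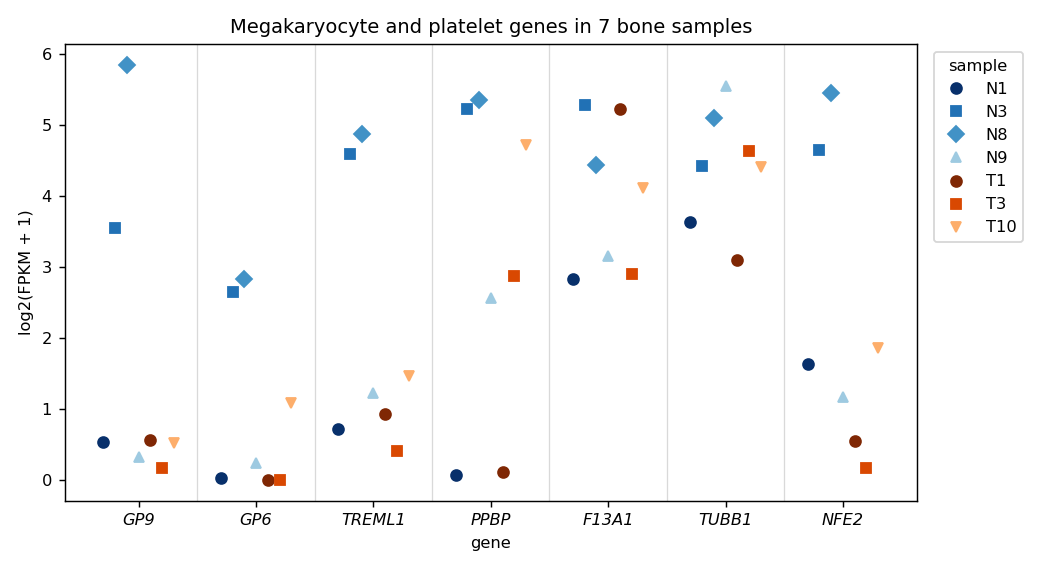
log2(FPKM + 1) of each gene (x axis) in each of the 7 samples, 1 point per sample; blue symbols are non-tumor and brown to orange symbols OSA tumor. In *GP9*, *GP6*, *TREML1* and *NFE2*, N3 and N8 stand above the other 5 samples; in *PPBP*, T10 lies near them, and in *F13A1* and *TUBB1* the samples are mixed.

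*PPBP* (ENSCAFG00000031174, chromosome 13 from 62526512 to 62531005) encodes pro-platelet basic protein, an abundant chemokine of platelet alpha granules. Non-tumor bone ranged from 0.0486 FPKM in N1 over 4.91 in N9 to 36.6 in N3 and 40.0 in N8. OSA tumor ranged from 0.0863 FPKM in T1 over 6.37 in T3 to 25.4 in T10. N1 and T1 were close to 0, whereas T10 reached 69.4% of the value in N3. The log2 fold change of *PPBP* was -0.73 (SE 1.42, adjusted p = 0.918 by limma; exact permutation p = 0.629), the least precise of the 7.

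*F13A1* (ENSCAFG00000009509, chromosome 35 from 6185898 to 6347853) encodes the A chain of clotting factor XIII, which crosslinks fibrin and is made by megakaryocytes and also by macrophages. From high to low, the non-tumor samples were at 37.9 (N3), 20.7 (N8), 7.91 (N9) and 6.14 FPKM (N1), and the tumor samples at 36.5 (T1), 16.4 (T10) and 6.48 FPKM (T3). T1 thus stood at 96.4% of N3, and both groups covered nearly the same range. The means were 18.2 ± 14.7 FPKM (SD, n = 4) in non-tumor and 19.8 ± 15.3 FPKM (SD, n = 3) in tumor samples (log2 fold change 0.16, SE 0.75, adjusted p = 0.968 by limma; exact permutation p = 0.971). Without N1, N9 or T1 the log2 fold change was negative, at -0.21, -0.10 and -0.41. Macrophage genes were also present in T1, but most of the 8 listed peaked elsewhere. *CSF1R*, the receptor of the macrophage growth factor, was at 60.8 FPKM in T1 and between 7.41 and 38.3 FPKM in the other samples. *CD68* was highest in T1 at 400 FPKM, in an interval shared by 17 genes. *CD163* was at 9.95 FPKM in T1 and 71.1 in N3. *C1QA*, *C1QB* and *C1QC* were at 32.3, 20.6 and 41.2 FPKM in T1 against 278, 183 and 311 in N3. *MSR1* was highest in T10 and *MARCO* in T3. The summed FPKM of 8 macrophage genes ran from 58.5 to 983 in non-tumor and from 174 to 572 in tumor samples, none of the 8 was at 0 in any sample, and 0 of them passed the threshold. Their part in the level of *F13A1* was not tested.

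*TUBB1* (ENSCAFG00000032130, chromosome 24 from 43759555 to 43773702) encodes the beta-1 tubulin of the microtubule ring that keeps platelets disc-shaped. It was the gene with the highest mean level, 23.3 FPKM over all samples, and at 7.56 FPKM or more in every sample. N9 (45.8 FPKM) and N8 (33.5) were highest, followed by T3 (23.9), N3 (20.6), T10 (20.3), N1 (11.5) and T1 (7.56). *GP9* in N9 was at 0.255 FPKM. The means of 27.8 ± 15.0 FPKM (SD, n = 4) in non-tumor and 17.2 ± 8.58 FPKM (SD, n = 3) in tumor samples differed by less than the spread within the non-tumor group (log2 fold change -0.63, SE 0.61, adjusted p = 0.806 by limma; exact permutation p = 0.343). Its interval also holds a listed gene without a symbol, at 0 in all 7 samples. N8 and N9 were also the samples with the most RNA of 13 skeletal muscle genes. Their summed FPKM was 87610 in N8 and 61357 in N9, 1413 in N3, 83.2 in N1 and between 6.88 and 14.4 in tumor. Past the threshold were 11 of the 13, all lower in tumor, where 3.58% of all genes tested passed as lower. The part of muscle in the level of *TUBB1* was not tested.

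*NFE2* (ENSCAFG00000030927, chromosome 27 from 1003175 to 1012956) encodes the large subunit of the transcription factor NF-E2, which megakaryocytes need to release platelets and which red cell precursors express too. N8 (42.8 FPKM) and N3 (24.2) were far above the rest, which ran from T10 (2.63) over N1 (2.10), N9 (1.25) and T1 (0.461) down to T3 (0.120), and T10 was the only tumor sample that exceeded N1 and N9. *NFE2* had the smallest p of the 7 genes (log2 fold change -2.37, SE 1.06, unadjusted p = 0.0520, adjusted p = 0.693 by limma; exact permutation p = 0.171). *MAFK*, which encodes a small Maf partner of this factor, had a log2 fold change of -0.83 and did not pass the threshold. It was at 26.8 FPKM in N8 and 18.4 in T1, but lower in N3 (8.45) than in N1 (13.6).

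Across the 7 samples, N3 and N8 were the 2 highest for 5 of the 7 genes (*PPBP*, *GP9*, *GP6*, *NFE2* and *TREML1*), against 8.65% of all genes tested; this count was chosen after the values were seen. *GP9*, *GP6* and *TREML1* reached testing only through N3 and N8, which also held most of the summed FPKM of *NFE2*. Nothing is therefore read from the count. N3 and N8 together held 97.5% of the summed FPKM of *GP9*, 91.2% of *TREML1*, 91.1% of *NFE2*, 89.6% of *GP6* and 67.6% of *PPBP*, but 44.4% of *F13A1* and 33.1% of *TUBB1*. The ratio of N8 to N3 also differed between the genes. It was 5.28 for *GP9*, 1.77 for *NFE2*, 1.63 for *TUBB1*, 1.22 for *TREML1*, 1.17 for *GP6*, 1.09 for *PPBP* and 0.55 for *F13A1*. Averaged over the 7 genes, log2(FPKM + 1) was 4.85 in N8 and 4.34 in N3, and between 1.35 (N1) and 2.60 (T10) in the other 5 samples.

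Summed levels of markers of other marrow cells were also highest in N3 and N8. *SLC4A1*, which encodes the red cell anion exchanger, was at 174 FPKM in N8 and 140 in N3, at 12.2 in N9, at 0.149 in N1 and 0.162 in T10, and listed at 0 in T1 and T3. The summed FPKM of the erythroid genes ran from 44.6 to 5997 in non-tumor and from 47.5 to 139 in tumor samples, and 9 of the 17 passed the threshold, all lower in tumor. For the 10 granulocyte genes the sums ran from 367 to 26660 and from 69.7 to 599, and 7 passed, all lower in tumor. Of all genes tested, 3.58% passed as lower. *KLF1* (erythroid) and *CEBPE* (granulocyte) were among those that reached the mean of 1 FPKM only through N3 and N8. Nothing is therefore read from these counts. *MPO*, a peroxidase of neutrophil granules, was at 588 FPKM in N3, 518 in N8 and 0.0608 in T10. The B lymphocyte sums ran from 13.3 to 205 in non-tumor and from 19.3 to 28.3 in tumor samples, and 0 of the 7 tested passed. Outside N3 and N8 most of these sums was *EBF1*, whose log2 fold change was 0.88. It was at 11.6 FPKM in N1, 9.61 in N9, 16.7 in T1, 17.9 in T3 and 22.3 in T10. *CD79A*, a chain of the B cell receptor, was at 39.5 FPKM in N3 and 34.2 in N8 and between 0.343 and 1.98 elsewhere. The part of other marrow cells in the values of the 7 genes was not tested. N9 and T10, picked after the values were seen, can be set against N3. Single genes weigh heavily in these sums. In N3, *AHSP* was at 1915 of the 3887 FPKM of the erythroid sum, and *S100A12* at 16020.5 of the 26660 of the granulocyte sum. In the other samples, *PPBP* was at 0.133% (N1), 0.236% (T1), 17.4% (T3) and 109% (N8) of N3. The erythroid sums there were 1.15%, 1.22%, 1.59% and 154%. In N9 the erythroid sum was 10.4% of that in N3, the granulocyte sum 3.45%, the macrophage sum 5.95% and the B lymphocyte sum 6.49%, beside 2.37% for *GP9*, 3.39% for *GP6*, 5.17% for *NFE2*, 5.78% for *TREML1*, 13.4% for *PPBP*, 20.9% for *F13A1* and 223% for *TUBB1*. In T10 the erythroid sum was 3.58%, the granulocyte sum 2.25%, the macrophage sum 17.7% and the B lymphocyte sum 13.8% of N3, beside 4.11% for *GP9*, 7.54% for *TREML1*, 10.9% for *NFE2*, 21.3% for *GP6*, 43.3% for *F13A1*, 69.4% for *PPBP* and 98.6% for *TUBB1*.

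**Figure D3:**
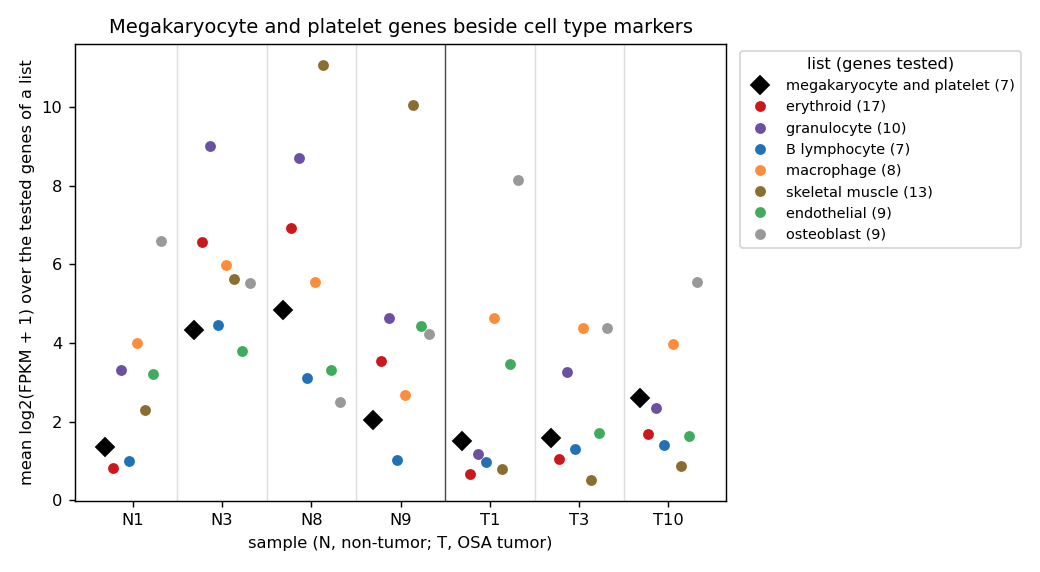
Mean log2(FPKM + 1) over the tested genes of each list (y axis) in each sample (x axis); black diamonds are the 7 megakaryocyte and platelet genes and circles the marker lists of 7 other cell types. The black diamonds are highest in N3 (4.34) and N8 (4.85), where the erythroid, granulocyte and macrophage circles are also at their highest.

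Further genes of platelets and megakaryocytes were taken by role from 5 lists of 70 symbols, of which 64 were in the table and 58 were tested. Lower in tumor by the threshold were 6 genes and higher were 2, and 50 did not pass, where of all genes tested 3.58% passed as lower and 6.86% in either direction. The median log2 fold change was -0.74, and an adjusted p under 0.05 was reached by 0. Some of the genes tested, among them *GFI1B*, *P2RX1* and *MMRN1*, reached the mean of 1 FPKM only through N3 and N8. Nothing is therefore read from this median. Among surface receptors (14 tested, 1 lower and 1 higher), *ITGA2B*, the alpha chain of the fibrinogen receptor, was at 30.7 FPKM in N8 and 24.3 in N3, and the rest ran from 2.78 in T10 over 2.06 (N9), 1.40 (N1) and 1.02 (T1) to 0.492 in T3. N8, N3 and T10 led in that order, as for *NFE2*, *TREML1*, *GP6* and *PPBP*. *ITGA2B* did not pass (log2 fold change -1.96, SE 0.98, unadjusted p = 0.0744 by limma); it did without N1 (-2.58), without N9 (-2.47) and with sample weights (-2.66). *GP1BB*, which encodes a partner chain of glycoprotein IX, was not tested because of its low level: its highest values were 1.82 FPKM in T1 and 1.35 in N8, N1 (0.324), N9 (0.130), T3 (0.0664) and N3 (0.0616) were lower, and in T10 it was listed at 0. It was thus near 0 in N3, in which *GP9* was at 10.8 FPKM. *P2RY1*, an ADP receptor gene whose interval holds 1 further gene, was lower in tumor (log2 fold change -2.23, SE 0.91, unadjusted p = 0.0360 by limma), although T1 was at 17.7 FPKM, close to N8 at 15.8. *CD9*, a tetraspanin made by many cell types besides platelets, was higher in tumor at 315 ± 173 FPKM (SD, n = 3) against 68.4 ± 38.5 (SD, n = 4), with groups that did not overlap (log2 fold change 2.21, unadjusted p = 0.00699 by limma; exact permutation p = 0.0571). *SELP*, the adhesion molecule P-selectin of platelets and endothelium, was highest in T3 at 16.8 FPKM (log2 fold change 0.10).

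In the 10 transcription factor genes tested, *TAL1*, a factor of red cell and megakaryocyte precursors, was lower in tumor (log2 fold change -1.97, SE 0.79, unadjusted p = 0.0334 by limma). Of 10 granule genes, *NBEAL2*, needed to form alpha granules, was lower (log2 fold change -1.94, unadjusted p = 0.0218 by limma). *VWF*, von Willebrand factor of platelets and endothelium, did not pass (-2.06, unadjusted p = 0.0603), and its value depended on the samples, from -2.66 without N1, where it passed, to -1.27 without N9; its highest value, 75.6 FPKM, was in N9, where the endothelial genes *PECAM1* and *CDH5* also peaked at 144 and 42.3 FPKM. The summed endothelial FPKM ran from 88.5 to 291 in non-tumor and from 27.8 to 113 in tumor samples, and none of the 9 genes was at 0. Of the 9, 4 passed, all lower, where 3.58% of all genes tested passed as lower. The part of the endothelial genes in *VWF* was not tested. Of 15 signalling genes, *RASGRP2*, an activator of Rap1 in platelets, was lower (-2.01, unadjusted p = 0.0401), but not with FPKM rescaled to the same sum (-1.82) or quantile normalized (-1.92). *FCER1G*, the signalling chain that *GP6* needs at the surface, had a log2 fold change of -0.66 and was at 281 FPKM in N3 and 233 in N8, but at 62.3 in T10 and 63.5 in T1, where *GP6* was listed at 0; many myeloid cells make it too. Of 9 cytoskeleton genes, the alpha tubulin genes *TUBA4A* (-3.94) and *TUBA8* (-2.80) were lower and the tropomyosin gene *TPM4* higher (1.72). *TUBA8* was at 185 FPKM in N9 and 180 in N8 and at 4.80 in N1, and *TUBA4A* at 554 FPKM in N8 and 252 in N9 and at 4.21 in N1, so the high samples of both were those of the muscle genes. The interval of *TUBA4A* is shared by 11 genes, among them *DES*, the muscle desmin gene, at 2524 FPKM in N8 and 3268 in N9, and the part of muscle in either tubulin was not tested. With 1 sample left out in turn, *CD9* passed in each of the 7 fits. The call was lost without N3 for *NBEAL2* (-1.60), *RASGRP2* (-1.51) and *TAL1* (-1.64), without N8 for *NBEAL2* (-1.64), *P2RY1* (-2.23), *RASGRP2* (-1.60), *TAL1* (-1.54) and *TUBA8* (-2.06), and without N9 for *P2RY1* (-1.86) and *TUBA8* (-2.05). It was lost without T1 for *RASGRP2* (-1.91) and *TUBA8* (-2.96), without T3 for *NBEAL2* (-1.65), *P2RY1* (-1.55), *RASGRP2* (-1.67), *TAL1* (-1.45), *TUBA4A* (-3.40) and *TUBA8* (-2.35), and without T10 for *NBEAL2* (-1.78), *P2RY1* (-1.72), *TPM4* (1.30) and *TUBA8* (-3.08). The number of these genes that passed ran from 2 without T3 to 17 without N1; it was 3 without N8, 5 without N3 or T10 and 12 without N9. The share of all genes tested that passed was 4.64% without T3, 14.9% without N1, 2.68% without N8, 6.93% without N3, 3.32% without T10 and 5.18% without N9.

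**Figure D4:**
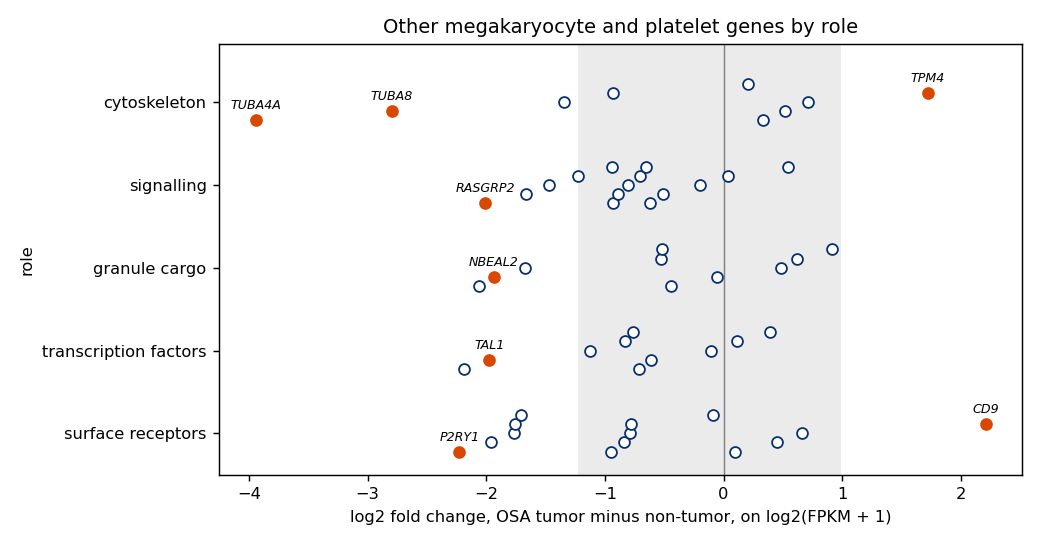
Log2 fold change (x axis, OSA tumor minus non-tumor on log2(FPKM + 1)) of the 58 further genes tested, by role (y axis); filled orange points passed the threshold and carry their symbol, open points did not, and the grey band spans the 10th to 90th percentile of all tested genes (-1.22 to 0.98). Filled points lie on the left for 6 genes and on the right for *CD9* and *TPM4*.

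The genes whose values ran most like the average of the 7 were found by the root mean square difference between log2(FPKM + 1) profiles centred on their own mean over the 7 samples. The nearest were *RFESD* (0.26), *TAC3* (0.27, in an interval shared by 10 genes), *RAB3D* (0.28), *ARHGAP30* (0.28), *ICAM4* (0.29), *MPP2* (0.29), *PAQR5* (0.31) and the B lymphocyte gene *MS4A1* (0.32). *RAB3D*, which encodes a small GTPase of secretory vesicles, was at 30.1 FPKM in N8 and 14.6 in N3, and between 0.948 (N1) and 3.73 FPKM (N9) in the other 5 samples. By the same measure against the mean of the other 6, *GP6* was the gene most like the rest at 0.24 and *TREML1* followed at 0.59, while *TUBB1* (1.40), *PPBP* (1.40) and *F13A1* (1.32) were the least like.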

How the data were processed

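The deposited table of FPKM per gene and sample was used (7 columns, with 0 per-sample columns unused). Per the study's methods, the authors used Trim Galore for trimming, Tophat2 for alignment to the CanFam3.1 genome with its Ensembl iGenomes annotation, and Cufflinks/Cuffdiff to obtain FPKM; tool versions and the scaling between libraries are not given in the sources used here. A second deposited table holds the authors' group FPKM, log2 fold changes, p-values and q-values, which were not used; its gene intervals were read as coordinates, with 1 added to each start, because 87.4% of 206 olfactory receptor intervals are multiples of 3 with starts counted from 0.

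Genes whose mean over the 7 samples reached 1 FPKM were tested on log2(FPKM + 1) with limma 3.58.1 (R 4.3.3), with a mean-variance trend, without pairing, and with Benjamini-Hochberg adjustment over all genes tested. The threshold (fold change of 2, unadjusted p under 0.05) is that of the study. Exact permutation tests ran in Python 3.11.15. The fit was tested on simulated data. Nothing says which samples came from separate dogs, so p-values measure the spread between these samples. Named were all genes found, fixed pathway genes where present, pathway genes past the threshold, the 8 most similar profiles and fixed markers; *MAFK* and values in single samples were picked out after they were seen. Some genes that this rule names are not reported here. The 7 genes and all lists were chosen with earlier results of these data known.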

Additional observations from a re-analysis of the deposited data

How the results depend on the processing

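The number of the 7 genes past the threshold, 0 as reported, was 1 (*NFE2*) with a pseudocount of 0.1 or 0.01, a filter of 1 FPKM in at least 3 samples (which left 6 of the 7 tested) or FPKM rescaled to the same sum, 3 with sample weights (*GP9*, *NFE2*, *TREML1*), and 0 to 3 with 1 sample left out. It stayed at 0 without a filter, with median ratio scaling, with quantile normalization and without the trend. Of the further platelet genes, 8 passed as reported, 4 without a filter (*P2RY1*, *RASGRP2*, *TAL1* and *TUBA8* did not pass there, nor did *RASGRP2* or *TUBA8* after quantile normalization or *RASGRP2* after rescaling to the same sum), 18 with sample weights and 2 to 17 with 1 sample left out. Over all genes 926 passed, 1857 with sample weights and 362 to 2011 with 1 sample left out. As a share of all genes tested, this was 6.86% as reported and 13.7% with sample weights. It was 7.77% and 7.80% with pseudocounts of 0.1 and 0.01, and 7.63% with the filter in at least 3 samples. After rescaling to the same sum it was 5.64%, without a filter 4.19%, with median ratio scaling 7.01% and with quantile normalization 6.72%. Sample weights gave negative log2 fold changes for *F13A1* (-0.27) and *SELP* (-0.40). With 1 sample left out, *F13A1* ran from -0.41 to 0.75, *PPBP* from -1.81 to 0.50 and *SELP* from -0.85 to 0.64. Rescaling to the same sum moved the median log2 fold change of all genes to 0.12 and that of the 7 genes to -0.86. It also raised the share of calls over all genes that were lower in tumor from 52.2% to 64.4%. The causes were not tested.

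With the number in the title as a replicate block, random over 7 samples or fixed over the samples numbered 1 and 3, 1 of the 7 genes (*NFE2*, -2.49 and -2.79) passed. The random block gave 1062 genes in all (7.86% of those tested) and 10 further platelet genes, and the fixed block 407 (3.05%) and 5. Under the fixed block *CD9* (1.48), *TPM4* (0.77), *P2RY1* (-1.17), *TUBA4A* (-1.99) and *TUBA8* (-0.86) did not pass, nor did *TUBA8* under the random block (-2.10), where *ITGA2B* did (-2.02). *VWF* was at -1.39 under the random and -0.09 under the fixed block; it passed with a pseudocount of 0.1 (-2.51) or 0.01 (-2.59), rescaling to the same sum (-1.97) or sample weights (-2.29). The deviations from the group means correlated at 0.42 across genes for N1 with T1 and at 0.21 for N3 with T3. Among pairs with unlike numbers the highest values were 0.135 (N9 with T10) and 0.107 (N8 with T3). N1 and T1 also had the highest osteoblast sums (7440 and 12731 FPKM). Only 2 numbers are shared, and whether a shared number marks 1 dog was not tested.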
